A study of Mus musculus with 6 samples.

Results

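Peaks of C/EBPα, IRF8 and JUNB that lie on long interspersed nuclear elements (LINEs) are described here. They were taken from the peak lists of 3 transcription factors in mouse bone marrow-derived macrophages (BMDMs), by 1 rule, namely that the detailed annotation deposited with a peak places its centre in a repeat of the LINE class. Of 134964 peaks in the 6 lists, 7658 met the rule, and all of them enter the counts. The annotation gives a repeat name only to peaks that are not in a promoter, exon, untranslated region or CpG island, so every peak on a LINE was intronic or intergenic by construction. Where a contrast was needed, the 89365 intronic and intergenic peaks on no repeat were used beside the peaks of all kinds.

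The macrophages came from wild-type C57BL/6 mice of 8 to 12 weeks and grown for 6 days in supernatant of L929 cells, which release M-CSF. They were left untreated (control) or given IL-4, the cytokine of alternative macrophage activation, at 20 ng/ml for 1 h, and were fixed with disuccinimidyl glutarate (DSG) and formaldehyde before chromatin immunoprecipitation and sequencing (ChIP-seq). No allele was altered in any group. For each factor, 1 sample was untreated and 1 received IL-4, and how many animals a sample stands for is not given in the sources used here. A difference between the conditions therefore has no replicate check, no test of it was possible, and intervals below are 95% binomial intervals (Wilson) that cover counting error only, since the peaks of 1 list are not replicates of a condition.

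The C/EBPα lists held 24486 (control) and 24612 (IL-4) peaks, those of IRF8 held 37525 and 42076, and those of JUNB held 3940 and 2325. Read depth is unknown from peak lists, and 2 library kits are named without saying which sample each served, so depth, kit and IL-4 cannot be told apart as sources of a difference between conditions. Peak lists hold no expression values with which to check the cell type.

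LINEs are retrotransposons without long terminal repeats that spread by copying an RNA back into the genome, and most copies are cut short and can no longer move. L1 is the family that is still active in the mouse. Its L1Md subfamilies are the young mouse copies, the L1_Mus, L1_Mur and Lx names mark older copies of rodents, and the L1M names mark copies that many mammals share. L2 and CR1 copies are older again and were inactive long before the rodents arose. C/EBPα and JUNB are leucine zipper proteins that bind C/EBP and AP-1 motifs. IRF8 binds DNA mainly with the ETS factor PU.1, at joint ETS-IRF motifs. C/EBPα, JUNB, PU.1 and IRF8 are counted among the lineage-determining transcription factors (LDTFs) of macrophages. IL-4 signals through STAT6, which binds TTC and GAA separated by a few bases.

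Below are the central 100 bases of 6 LINE peaks, shown because each is among the highest-scoring LINE peaks of its list or subfamily and holds a motif of the factor that was precipitated. Sequences are the plus strand of mm10, read from the GRCm38 reference and written from 5′ to 3′. Each name gives the nearest gene, the element and the list. Capitals mark matches on either strand to C/EBP (TTGCNNAA), AP-1 (TGAGTCA), ETS-IRF (GGAANTGAA), ISRE-type (GAAANNGAA) or PU.1 (GAGGAAGT) motifs, which can overlap. The first run of capitals in the Mpeg1 sequence holds an ISRE-type and a C/EBP match.
Mpeg1 Lx9, C/EBPα control, chr19:12445177-12445276: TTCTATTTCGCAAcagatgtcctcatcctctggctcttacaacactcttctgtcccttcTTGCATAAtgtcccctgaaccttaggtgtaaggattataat
Gadd45a Lx5, C/EBPα IL-4, chr6:67069350-67069449: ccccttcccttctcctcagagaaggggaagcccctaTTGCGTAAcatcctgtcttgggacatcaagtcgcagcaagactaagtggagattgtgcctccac
Rgl1 L1MEd, IRF8 control, chr1:152528932-152529031: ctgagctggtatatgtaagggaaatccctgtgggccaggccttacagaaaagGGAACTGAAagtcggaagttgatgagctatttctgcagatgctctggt
Gm20125 L1MC, IRF8 control, chr10:16652602-16652701: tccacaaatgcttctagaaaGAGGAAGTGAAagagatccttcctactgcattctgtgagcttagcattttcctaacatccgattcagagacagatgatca
Psen2 L1MEb, JUNB control, chr1:180263533-180263632: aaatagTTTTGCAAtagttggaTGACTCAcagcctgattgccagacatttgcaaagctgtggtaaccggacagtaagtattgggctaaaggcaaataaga
Zfp386 L1Md_F2, IRF8 IL-4, chr12:114931318-114931417: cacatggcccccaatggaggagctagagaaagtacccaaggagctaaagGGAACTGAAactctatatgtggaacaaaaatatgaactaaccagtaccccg

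The LINE share lay between 5.13% and 5.87% in all 6 lists. It was 5.69% in the C/EBPα control list (1394 peaks, interval 5.41 to 5.99) and 5.67% in its IL-4 list (1396 peaks, 5.39 to 5.97). It was 5.87% (2201 peaks, 5.63 to 6.11) and 5.57% (2344 peaks, 5.36 to 5.79) for IRF8. It was 5.13% (202 peaks, 4.48 to 5.86) and 5.20% (121 peaks, 4.37 to 6.18) for JUNB. The intervals of the 2 conditions overlapped for each factor. Among peaks with a score of at least 10 the JUNB shares were lower, at 4.39% (3.41 to 5.63) in control and 2.52% (1.41 to 4.46) after IL-4, beside 6.10% and 6.30% in the control lists of C/EBPα and IRF8. Peaks on LTR elements made up between 6.19% and 8.76% of a list and those on SINEs between 2.99% and 3.48%, so that LINE peaks stood between these classes in every list.

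L1 copies carried 6411 of the LINE peaks, L2 copies 914, CR1 copies 282, RTE-X copies 49 and RTE-BovB copies 2. The L1 share of LINE peaks ran from 78.5% in the JUNB IL-4 list to 85.2% in the IRF8 IL-4 list. The C/EBPα and IRF8 lists differed in which L1 copies they held. L1M copies made up 48.9% of C/EBPα control LINE peaks (46.2 to 51.5) and 42.3% of those of IRF8 (40.3 to 44.4). Copies of the L1_Mus, L1_Mur, L1_Rod and L1VL names, called murine L1 below, made up 7.32% (6.06 to 8.80) and 12.9% (11.5 to 14.3). L1Md copies made up 0.430% (6 peaks, 0.197 to 0.936) and 1.91% (42 peaks, 1.41 to 2.57). The intervals of the 2 factors did not overlap in these 3 groups, in which IRF8 was higher on the younger copies and C/EBPα on the older ones. After IL-4 the same held, at 50.9% against 41.6% for L1M and 6.88% against 12.4% for murine L1. Lx copies did not separate the factors, with 23.96% of C/EBPα and 24.7% of IRF8 control LINE peaks. For JUNB, Lx copies made up 24.3% of the control LINE peaks (49 peaks, 18.9 to 30.6) and 13.2% of the IL-4 ones (16 peaks, 8.31 to 20.4), intervals that overlapped.

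**Figure D1:**
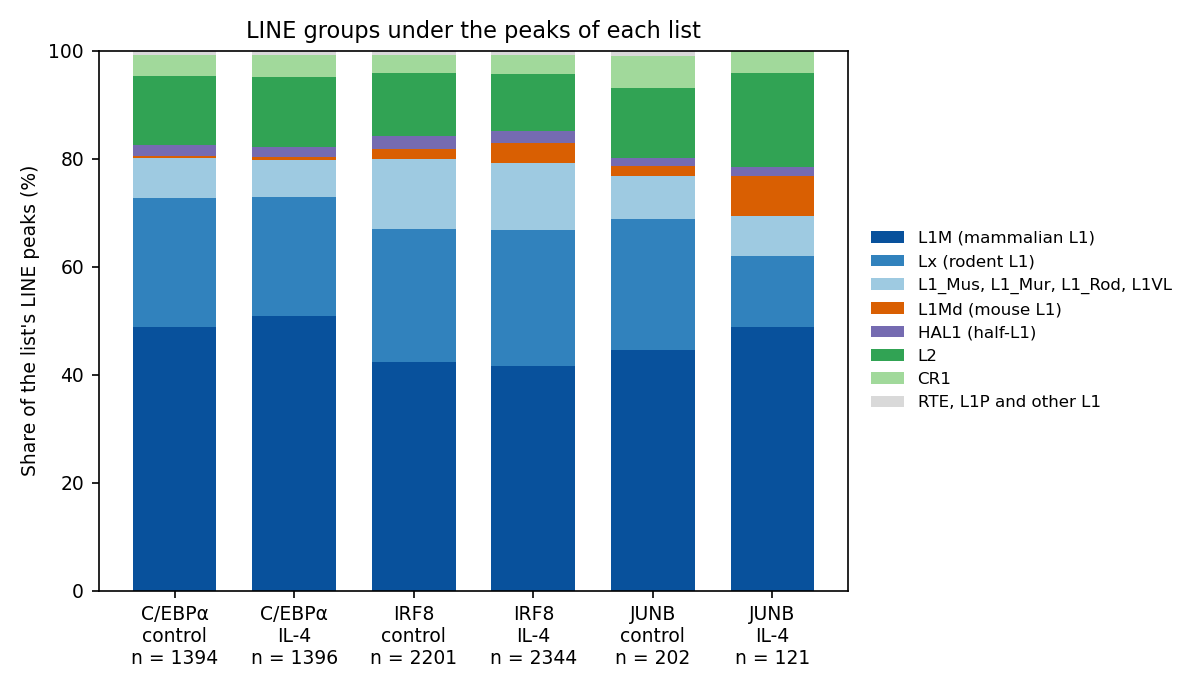
Stacked bars give the share of the LINE peaks of each list (percent) by group of elements, with n the number of LINE peaks. L1M copies were the largest group in all 6 lists, and murine L1 copies took a larger share in the IRF8 lists (12.9% and 12.4%) than in the C/EBPα lists (7.32% and 6.88%).

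By element name the peaks were spread over 140 names, of which the 10 with most peaks held 2791 peaks, or 36.4%. Lx8 led with 453 peaks, and was followed by L2 with 364, Lx9 with 291, Lx7 with 287, L2a with 256, L1M4 and L1_Mur3 with 245 each, L1MB7 with 244, L3 with 206 and L1MB3 with 200. There were 15 names with 1 or 2 peaks. Lx8 held nearly equal numbers of C/EBPα peaks (111 control, 101 IL-4) and IRF8 peaks (105 and 116), although the IRF8 lists were longer, and had 16 and 4 peaks of JUNB. L1_Mur3 showed the other pattern, with 39 and 31 C/EBPα peaks against 86 and 84 IRF8 peaks. L1MB7 stood between, with 53 and 60 peaks of C/EBPα and 66 and 60 of IRF8.

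A deposited peak score has no stated unit. From its values it was read as −log10 of a p or q value, which rises with read depth as well as with enrichment, so scores are compared within a list or as ratios. The median score of LINE peaks was above that of peaks on no repeat in 3 lists and below it in the other 3. Their median score was 12.24 in the C/EBPα control list, against 11.43 for peaks on no repeat, and 12.065 against 11.64 after IL-4. For IRF8 it was 11.54 against 10.77 in control cells and 10.24 against 10.64 after IL-4. For JUNB the LINE peaks were lower in both conditions, at 7.52 against 7.88 and at 5.26 against 6.17. The groups differed more than the classes did. In the IRF8 control list, CR1 peaks had a median of 20.985 and 45.8% of the 72 peaks were in the upper quartile of scores, while the 42 L1Md peaks had a median of 6.24, which fell to 3.97 over the 87 of the IL-4 list. Median peak width was 269 bp at LINEs and 270 bp on no repeat in the C/EBPα control list, 268 and 274 bp for IRF8, and 194 and 214 bp for JUNB. In the IRF8 control list it was 315.5 bp on CR1 and 200.5 bp on L1Md copies.

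The highest-scoring C/EBPα LINE peaks were present in both conditions. An Lx8b copy 10096 bp upstream of BC005537 scored 194.48 in control and 199.48 after IL-4. IRF8 scored 43.58 and 70.98 there, and JUNB 9.54 in control, with no JUNB peak after IL-4. An Lx9 copy 15553 bp upstream of Mpeg1, which encodes the pore-forming macrophage protein perforin-2, had C/EBPα scores of 174.10 and 203.74 and IRF8 scores of 29.46 and 26.73. An L1MB4 copy nearest to Rhob, a small GTPase gene, scored 176.91 and 154.02, with 19.05 and 14.85 for IRF8. An Lx5 copy nearest to Gadd45a, a growth arrest and stress gene, scored 161.70 and 165.46, with 14.21 and 22.25 for IRF8. All 4 regions thus had IRF8 peaks in both conditions. Scores of the other lists, here and below, are of peaks in the same region, whose own centres need not be annotated to a LINE.

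The highest-scoring IRF8 LINE peaks also persisted. An L1MEd copy in intron 14 of 17 of Rgl1, which encodes an exchange factor for Ral GTPases, scored 260.38 in control and 271.05 after IL-4. The same region scored 90.61 and 77.46 for C/EBPα and 14.51 and 7.17 for JUNB. An L1MC copy with Gm20125 as its nearest gene, 443131 bp away, scored 258.07 and 272.75 for IRF8, 43.23 and 60.03 for C/EBPα, and 11.23 and 18.53 for JUNB. An L2 copy in intron 2 of 2 of the transcript NM_028832, 2155 bp from the start of Mterfd3, a gene of the mitochondrial transcription termination factor family, scored 223.01 and 243.01 for IRF8 and 147.02 and 154.29 for C/EBPα. An L1ME3Cz copy nearest to 1500016L03Rik scored 217.01 and 269.96 for IRF8, 25.18 and 27.42 for C/EBPα, and had no JUNB peak.

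The 3 highest-scoring JUNB LINE peaks of control cells also had C/EBPα and IRF8 peaks, and had lower JUNB scores after IL-4. An L1M4 copy nearest to 4933417O13Rik, 37784 bp away, scored 31.20 for JUNB in control and 17.74 after IL-4, with 55.32 and 63.08 for C/EBPα. The 32 bases at its control centre occur at 5 places in the genome. An L1MEb copy 7282 bp upstream of Psen2, which encodes a presenilin, the catalytic subunit of γ-secretase, scored 21.80 and 8.96 for JUNB, while C/EBPα scored 130.89 and 132.12 and IRF8 scored 38.38 and 54.68. An L1M2 copy nearest to E030025P04Rik scored 21.18 and 8.65 for JUNB, while C/EBPα scored 33.00 and 24.60 and IRF8 scored 30.25 and 30.19. An L1MA5 copy 15554 bp upstream of Rmdn2, a gene for a regulator of microtubule dynamics, was the highest LINE peak of the JUNB IL-4 list at 19.18. The JUNB control peak there scored 25.23, but its centre was not annotated to a LINE. C/EBPα scored 27.93 and 21.28 there, and IRF8 had no peak.

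The highest-scoring peak of each family other than L1 and L2 came from an IRF8 list, as deposited scores without a scale common to the lists. An L3 copy of the CR1 family in intron 13 of 36 of the transcript NM_029332, with Klhl25 as the nearest gene, scored 188.86 and 190.96 for IRF8 and 30.47 and 37.68 for C/EBPα. An X3_LINE copy, the only RTE-BovB region, was nearest to Ccr3, an eotaxin receptor gene, and scored 96.41 and 47.06 for IRF8 and 10.43 and 11.72 for C/EBPα. An L4_B_Mam copy of RTE-X nearest to 9430076C15Rik scored 70.94 and 92.44 for IRF8, and 6.59 for C/EBPα after IL-4 only. None of the 3 had a JUNB peak.

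**Figure D2:**
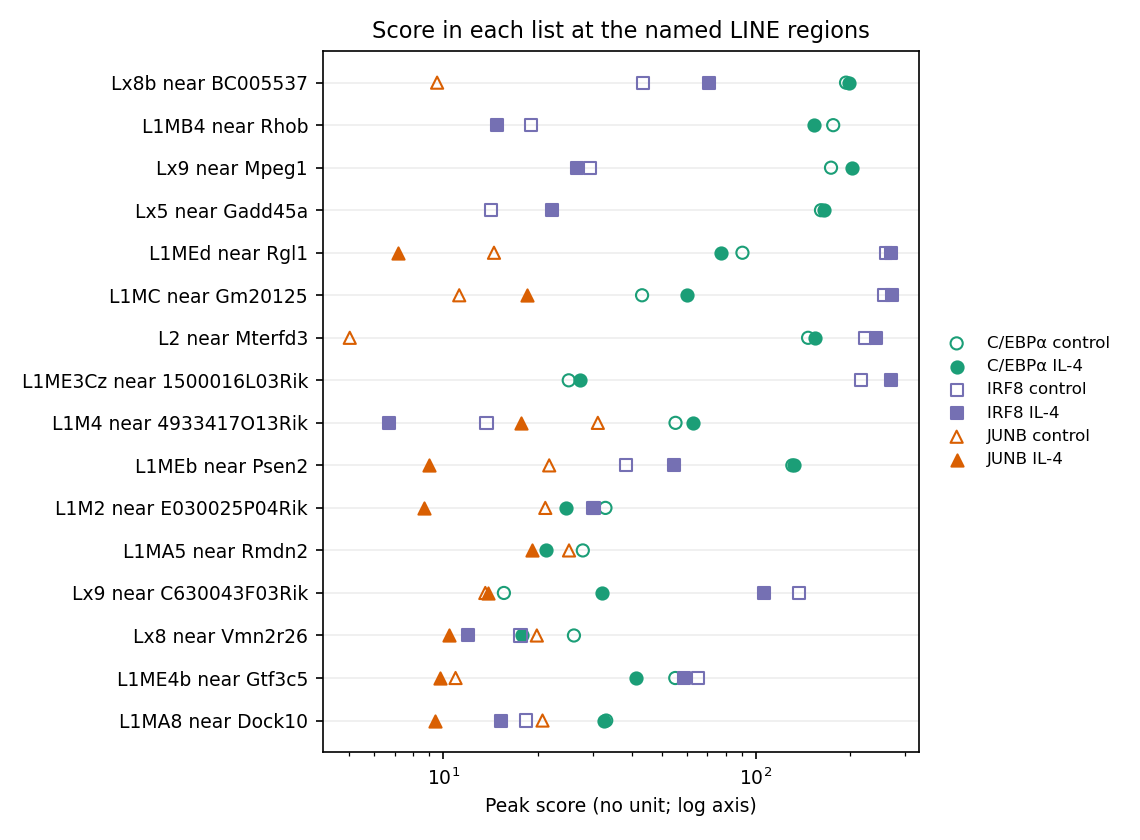
Deposited peak score (log axis) of each factor in control cells and after IL-4 at the LINE regions named in the text, 1 sample a list. A missing point is a list with no peak there, and the highest IRF8 scores stand at the Rgl1 and Gm20125 regions (260.38 and 258.07 in control).

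Next, LINE peaks of the 2 conditions were compared by overlap, counting a peak as shared when it overlapped a peak of the other list of its factor by at least 1 bp. For C/EBPα, 1107 of 1394 control LINE peaks were shared (79.4%, 77.2 to 81.5), as were 79.5% of control peaks on no repeat. The 287 others compare with 21.4% of all C/EBPα control peaks without an IL-4 peak. In the IL-4 list 1121 of 1396 were shared (80.3%, 78.1 to 82.3) against 79.0% on no repeat, and 275 were found after IL-4 only, where the share over all peaks was 22%. For IRF8, 1683 of 2201 control LINE peaks were shared (76.5%, 74.7 to 78.2) against 79.9% on no repeat (79.3 to 80.4), and 518 were in control only, with 21.4% over all peaks. In the IL-4 list 1699 of 2344 were shared (72.5%, 70.6 to 74.3) against 72.4%, and 645 were new, with 30.4% over all peaks. For JUNB, 66 of 202 control LINE peaks were shared (32.7%, 26.6 to 39.4) against 34.7%, and 136 were in control only, with 64.2% over all peaks. In its IL-4 list 59 of 121 were shared (48.8%, 40.0 to 57.6) against 61.4% on no repeat (59.0 to 63.8), and 62 were after IL-4 only, with 39.2% over all peaks. LINE peaks were thus shared about as often as peaks on no repeat, with lower shares in the IRF8 control and JUNB IL-4 lists by intervals that did not overlap. Peaks on LTR elements and SINEs were also below peaks on no repeat in these lists, at 75.4% and 74.4% for IRF8 control and 57.6% and 50.7% for JUNB IL-4. The JUNB shares moved with the settings, to 15.5% of control and 72.7% of IL-4 LINE peaks among scores of at least 10, and to 42.5% and 38.0% with lists of equal length.

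Sharing rose with the score. In the lowest quartile of scores 41.5% of IRF8 control LINE peaks were shared (37.1 to 45.9), and in the highest quartile 592 of 593. Peaks on no repeat in the lowest quartile were shared more often, at 50.1% (48.8 to 51.4), and in the highest quartile at 99.9%. In the IL-4 lists the lowest quartile gave 37.8% at LINEs and 35.6% on no repeat for IRF8, and 51.4% and 50.4% for C/EBPα, with intervals that overlapped. For C/EBPα control LINE peaks the lowest and highest quartiles gave 47.5% and 100%. For JUNB they gave 10.9% and 70.0% in control. In the lowest quartile of the JUNB IL-4 list 9 of 39 LINE peaks were shared (23.1%, 12.6 to 38.3). The share was 40.9% on no repeat (36.2 to 45.8), an interval that overlapped, and 28.2% on LTR elements and 20.8% on SINEs.

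**Figure D3:**
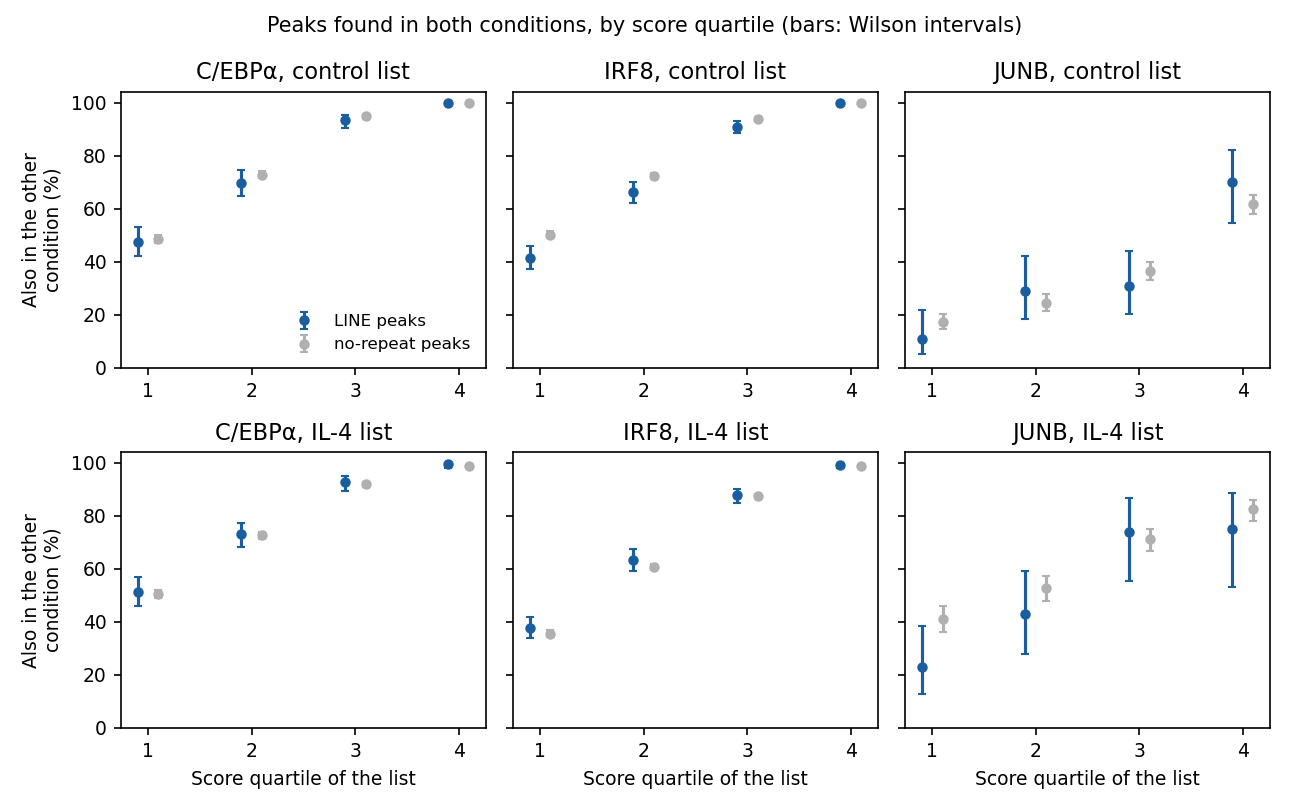
Share of LINE peaks and of peaks on no repeat (percent, with 95% Wilson intervals) that overlapped a peak of the same factor in the other condition, by quartile of the score within the list (1 is the lowest). The share rose with the score in each list, from 41.5% to 99.8% for IRF8 control LINE peaks.

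At shared LINE peaks of C/EBPα and IRF8, scores were higher after IL-4 at some and lower at others, with medians of the ratio near 0. Peaks were paired 1 to 1 by their largest overlap, and the ratio was IL-4 over control. For C/EBPα the median log2 ratio of the scores was -0.0026 (SD between peaks 0.70, 1102 pairs). A score at least 2-fold higher after IL-4 was found for 65 LINE pairs, or 5.90% (4.65 to 7.45), beside 7.72% of all pairs, and a score at least 2-fold lower for 71, or 6.44% (5.14 to 8.05), beside 6.56%. For IRF8 the median was 0.00060 (SD 0.80, 1666 pairs), beside 0.083 over all pairs and 0.079 on no repeat. Scores of IRF8 LINE pairs were at least 2-fold higher after IL-4 in 144 cases (8.64%, 7.39 to 10.1), beside 11.3% of all pairs (10.96 to 11.7), and at least 2-fold lower in 188 (11.3%, 9.85 to 12.9), beside 7.96% (7.65 to 8.27). Higher scores were thus less frequent and lower scores more frequent at LINEs, by intervals that did not overlap. For JUNB the median was -0.65 (SD 0.87, 66 pairs), beside -0.54 over all pairs and -0.60 on no repeat. It was -0.30 with scores divided by the list's median, and -0.081 over pairs with both scores at least 10. Of the JUNB LINE pairs 1 was at least 2-fold higher (1.52%, 0.268 to 8.10), beside 2.99%, and 22 were at least 2-fold lower (33.3%, 23.2 to 45.3), beside 29.9%.

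The LINE label itself moved with the peak's centre. Of 1102 C/EBPα pairs with a LINE peak in control, 1005 had a LINE peak after IL-4, 1002 of them on the same element. For IRF8 it was 1470 of 1666, with 1462 on the same element, and for JUNB 52 of 66, with 51. Another 112, 218 and 7 pairs carried the label after IL-4 only.

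The strongest LINE peaks that were found after IL-4 only lay with C/EBPα and IRF8. An L1MB7 copy nearest to Zfpm1, which encodes the GATA cofactor FOG-1, had no control peak of any factor, and after IL-4 it had a C/EBPα score of 45.50 and an IRF8 score of 11.87. An L1MA8 copy nearest to Dennd1b, an exchange factor gene for Rab GTPases, likewise went from no peak to 33.20 and 13.22. An L1MA6 copy in intron 6 of 29 of Pla2r1, the phospholipase A2 receptor gene, scored 22.52 for C/EBPα after IL-4 and had no other peak. For IRF8, an L1MC5 copy nearest to Mpp6, a membrane scaffold gene, scored 59.30 after IL-4, with 15.67 for C/EBPα and no control peak of either. An L1MB5 copy in intron 2 of 4 of Vamp3, a SNARE gene of vesicle fusion, scored 36.91 for IRF8. A HAL1 copy in intron 1 of 16 of Lcp1, which encodes the leukocyte actin-bundling protein L-plastin, scored 35.13 for IRF8 and 7.31 for C/EBPα.

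The highest peaks found in control only scored below the highest found after IL-4 only for C/EBPα and IRF8, and above them for JUNB. For C/EBPα the highest were an L1M5 copy nearest to Bank1, a B cell scaffold gene, at 21.90, an L1MB8 copy nearest to Mir875 at 16.14, and an L1ME3A copy in Fah, a gene of tyrosine breakdown, at 15.40. IRF8 kept the Bank1 region, at 112.49 and 88.02. For IRF8 the highest were an Lx copy nearest to Dcun1d5, a gene of cullin neddylation, at 26.73, an L1_Mus3 copy nearest to Fgfr2 at 23.11 and an Lx8b copy nearest to Fundc1, a mitophagy receptor gene, at 21.62. For JUNB they were an L1MB7 copy in intron 1 of 10 of Sms, the spermine synthase gene, at 19.08, an L1_Mur3 copy in Dnttip1 at 18.15, and an L1MD copy nearest to Cblb, a ubiquitin ligase gene, at 17.50. The other factors stayed at the Cblb region, with 106.10 and 132.94 for C/EBPα and 33.24 and 56.55 for IRF8.

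Few JUNB LINE peaks were new after IL-4 at a high score. The highest was an L2 copy in March10, a ubiquitin ligase gene, at 12.28. An L1Md_F2 copy nearest to Cr2 scored 9.59, and the 32 bases at its centre occur 4597 times in the genome. An L1MA9 copy in intron 3 of 8 of Lpxn, which encodes the adhesion adaptor leupaxin, had a higher score after IL-4 for all 3 factors. C/EBPα went from 7.15 to 24.13 there, IRF8 from 70.66 to 185.84, and JUNB from no peak to 9.28.

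LINE peaks of each factor were then set against all peaks of another factor in the same condition, whether on a LINE or not. Of the C/EBPα LINE peaks in control cells, 62.8% overlapped an IRF8 peak, beside 59.5% on no repeat, and after IL-4 59.9% beside 62.4%, and the intervals overlapped in both conditions. Of the IRF8 LINE peaks, 39.3% overlapped a C/EBPα peak in control, beside 41.1%, and 36.1% after IL-4 (34.2 to 38.1), beside 39.4% (38.8 to 39.9). JUNB joined LINE peaks less often than it joined peaks on no repeat. It overlapped 9.83% of C/EBPα LINE peaks beside 12.6% in control, and 5.44% beside 7.35% after IL-4, and 6.77% of IRF8 LINE peaks beside 9.66%, and 3.92% beside 5.19%, and none of these 4 pairs of intervals overlapped. Peaks on LTR elements had shares like those at LINEs, at 9.57% and 5.47% for C/EBPα and 6.36% and 3.26% for IRF8. JUNB LINE peaks in turn overlapped a C/EBPα peak in 69.3% (75.5% on no repeat) and an IRF8 peak in 75.7% (82.5%) in control, and in 65.3% (76.8%) and 73.6% (84.4%) after IL-4, with intervals that overlapped in control and did not after IL-4.

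Overlap with C/EBPα differed among the element groups of IRF8. In control cells, 45.6% of IRF8 peaks on L1M copies had a C/EBPα peak (42.5 to 48.9) and 46.5% of those on L2 (40.5 to 52.6). The share was 58.3% on CR1 (46.8 to 69.0), 30.9% on Lx (27.2 to 34.9), 25.8% on murine L1 (21.1 to 31.2) and 3 of 42 on L1Md (7.14%, 2.46 to 19.0). The younger groups thus had the lower shares. Median scores followed the same order, from 20.985 on CR1 and 12.16 on L1M to 9.16 on murine L1 and 6.24 on L1Md. Overlap also rose with the score, from 17.5% of IRF8 control LINE peaks in the lowest quartile to 59.5% in the highest. The part of the score was not tested. In the other direction, C/EBPα control peaks overlapped IRF8 in 64.6% on L1M, 53.3% on Lx and 65.7% on murine L1.

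When overlapping peaks of all lists were joined, the LINE peaks fell into 3921 of 60856 regions, and in 3043 of them every peak was annotated to a LINE. There were 2489 regions with 1 factor (63.5%, beside 67.7% of all regions), 1203 with 2 (30.7%, beside 26.7%) and 229 with 3 (5.84%, beside 5.56%). IRF8 alone held 1843, C/EBPα alone 610 and JUNB alone 36, beside 30253, 10504 and 454 of all 60856 regions. Peaks of all 6 lists met in 69 regions (1.76%, 1.39 to 2.22), beside 1.63% of all regions. The 5 of these whose lowest score was highest lay by C630043F03Rik (Lx9), Gm20125 (L1MC), Vmn2r26 (Lx8), Gtf3c5 (L1ME4b) and Dock10 (L1MA8). At the Lx9 copy C/EBPα scored 15.61 and 32.19, IRF8 scored 137.80 and 106.14, and JUNB scored 13.61 and 13.84. At the L1MA8 copy in intron 4 of 55 of Dock10, which encodes a guanine nucleotide exchange factor, they were 33.19 and 32.67, 18.40 and 15.23, and 20.75 and 9.37.

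LINE peaks held the motifs of C/EBPα and IRF8 more often than peaks on no repeat did, and that of JUNB less often. In the 200 bp on the peak's centre, 40.8% of C/EBPα control LINE peaks held a C/EBP motif (38.3 to 43.4), beside 34.3% on no repeat (33.6 to 35.0) and 34.3% of all peaks. After IL-4 it was 40.1% beside 33.4% and 33.3%. The ETS-IRF motif was held by 16.9% of IRF8 control LINE peaks (15.4 to 18.6), beside 12.2% on no repeat (11.8 to 12.6) and 12.1% of all peaks, and by 15.6% beside 11.5% and 11.1% after IL-4. The AP-1 motif was held by 38.6% of JUNB control LINE peaks (32.2 to 45.5), beside 51.3% on no repeat (49.5 to 53.1) and 47.8% of all peaks, and by 28.9% (21.6 to 37.6) beside 48.5% and 43.0% after IL-4. The order held in the upper quartile of scores, with 55.9% beside 47.9% for C/EBPα, 26.0% beside 22.7% for IRF8 and 45.0% beside 62.1% for JUNB in control, although there the intervals overlapped for IRF8 and JUNB. The median distance of a match from the peak's centre was 25 bp for C/EBPα, 23.5 bp for IRF8 and 29 bp for JUNB in the control lists. A match describes the letters and does not show a bound site.

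**Figure D4:**
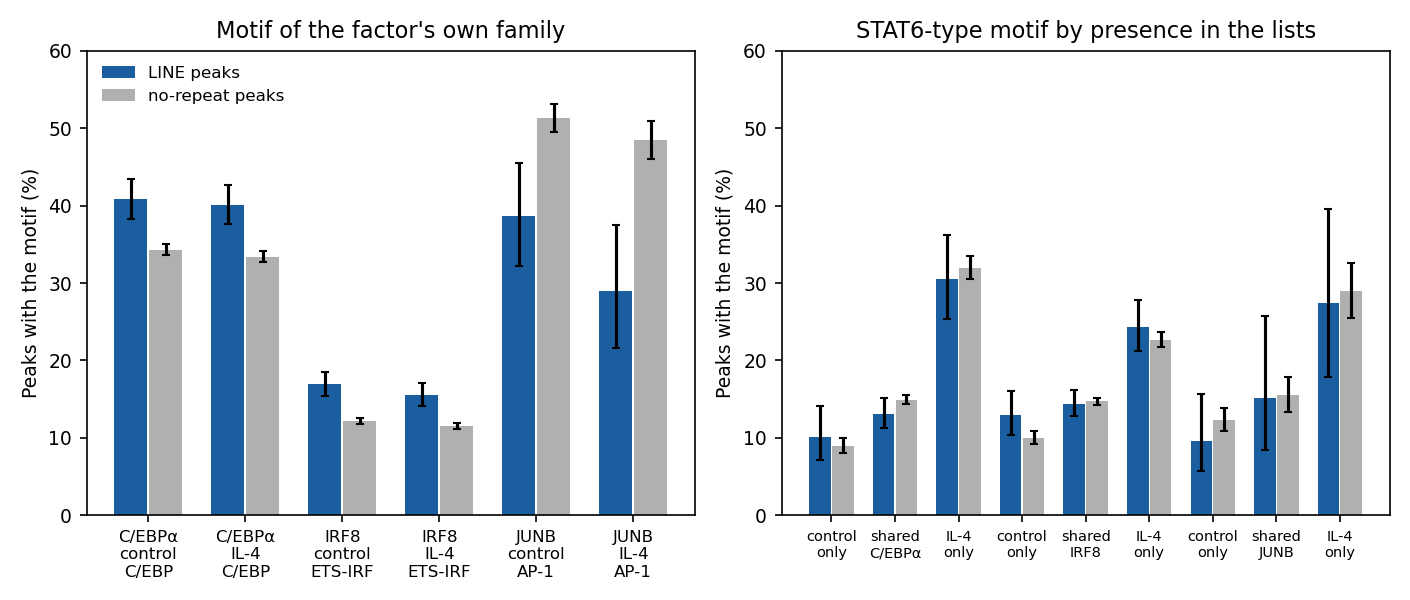
Share of LINE peaks and of peaks on no repeat (percent, bars with 95% Wilson intervals) whose central 200 bp hold the motif of the precipitated factor (left panel) or a STAT6-type motif, by presence in control only, both lists or IL-4 only (right panel). LINE peaks stood above peaks on no repeat for C/EBPα (40.8% and 34.3% in control) and IRF8 (16.9% and 12.2%) and below them for JUNB (38.6% and 51.3%).

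The motif shares differed between elements. Among C/EBPα control peaks, L1_Mus2 copies held a C/EBP motif in 17 of 24 (70.8%, 50.8 to 85.1), L1MB2 copies in 27 of 44 (61.4%, 46.6 to 74.3), L1MB7 copies in 31 of 53 (58.5%, 45.1 to 70.7) and Lx8 copies in 54 of 111 (48.6%, 39.6 to 57.8). L2 copies held it in 21 of 74 (28.4%, 19.4 to 39.5) and Lx7 copies in 11 of 50 (22.0%, 12.8 to 35.2). Among IRF8 control peaks, L1Md_F2 copies held an ETS-IRF motif in 12 of 25 (48.0%, 30.0 to 66.5), L2c copies in 12 of 38 (31.6%, 19.1 to 47.5) and Lx8 copies in 7 of 105 (6.67%, 3.27 to 13.1). Lx8 was thus high for the one motif and low for the other.

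Peaks on copies of 1 element rarely held the same letters around the motif. With 4 bases on each side, the 53 C/EBPα peaks with a motif among 109 on Lx8 copies held 59 distinct sites, and the most frequent occurred in 2 peaks. The 31 with a motif among 52 on L1MB7 copies held 34 sites, each in 1 peak. L1Md_F2 copies differed, with 8 distinct sites in 12 IRF8 control peaks. Peaks on 1 chromosome were left out of these counts. The sites that recurred there are shown with the motif in capitals, the first in 4 control and 4 IL-4 peaks, the second in 2 control peaks and the third in 3 IL-4 peaks.
L1Md_F2 site 1: aaagGGAACTGAAaccc
L1Md_F2 site 2: ctaaGGAAGTGAAagtt
L1Md_F2 site 3: ctaaGGAAGTGAAagat

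STAT6-type motifs, TTC and GAA with 3 or 4 bases between them, were more frequent at LINE peaks found after IL-4 only than at the other LINE peaks. Splitting peaks in this way was chosen after values were seen. For C/EBPα, 84 of 275 LINE peaks found after IL-4 only held one (30.5%, 25.4 to 36.2), beside 13.1% of shared control LINE peaks (11.2 to 15.2) and 29 of 287 found in control only (10.1%, 7.13 to 14.1). For IRF8 it was 157 of 645 (24.3%, 21.2 to 27.8), 14.4% (12.8 to 16.1) and 67 of 518 (12.9%, 10.3 to 16.1). For JUNB it was 17 of 62 (27.4%, 17.9 to 39.6), 10 of 66 (15.2%, 8.44 to 25.7) and 13 of 136 (9.56%, 5.67 to 15.7), where the intervals of the first and the second overlapped. Peaks on no repeat had like shares, with 32.01%, 22.7% and 28.9% for peaks after IL-4 only of C/EBPα, IRF8 and JUNB. Among scores above the list's median, LINE peaks after IL-4 only held the motif in 16 of 28 cases for C/EBPα (57.1%, 39.1 to 73.5) and 37 of 76 for IRF8 (48.7%, 37.8 to 59.7), while those in control only held it in 1 of 25 and 5 of 54. For JUNB, 2 of 12 LINE peaks after IL-4 only held it. Peaks on no repeat above the median and after IL-4 only held it in 262 of 402 cases for C/EBPα (65.2%). It was 381 of 929 for IRF8 (41.01%) and 67 of 190 for JUNB (35.3%). Their intervals overlapped those of the LINE peaks for each factor. On no repeat in control only it was 11 of 218 for C/EBPα and 39 of 391 for IRF8. The higher share after IL-4 only was thus not particular to LINEs. The centres of the first and the third C/EBPα LINE peaks found after IL-4 only are shown, with STAT6-type matches in capitals.
Zfpm1 L1MB7, C/EBPα IL-4, chr8:122183746-122183845: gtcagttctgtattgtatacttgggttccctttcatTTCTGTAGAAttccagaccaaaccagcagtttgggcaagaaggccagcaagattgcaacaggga
Pla2r1 L1MA6, C/EBPα IL-4, chr2:60504883-60504982: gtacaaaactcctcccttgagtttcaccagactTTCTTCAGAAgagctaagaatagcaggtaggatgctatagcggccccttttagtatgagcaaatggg

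The number of IRF8 peaks on L1Md copies went from 42 in control to 87 after IL-4, while that on Lx copies went from 544 to 593 and that on L1M copies from 931 to 974. Of these, 17 of the 42 and 17 of the 87 were shared, beside 78.6% of all IRF8 control peaks and 69.6% of all IRF8 IL-4 peaks. Of the 70 found after IL-4 only, 26 were on L1Md_F2, 23 on L1Md_T and 15 on L1Md_A, and their scores ran from 2.05 to 12.87 with a median of 3.02. The added peaks were weak, with 69 of the 87 in the lowest quartile of IL-4 scores, against 18 of 42 in control. They also lay where copies are hard to tell apart. The 32 bases at the centre occurred once in the genome for 15 of the 42 and 9 of the 87. Among peaks with a score of at least 10 there were 8 in control and 6 after IL-4, and when both lists were cut to equal numbers of their highest-scoring peaks there were 42 and 43. The part of copy number in the rise was not tested. Over all 6 lists the central 32 bases occurred once for 21.8% of L1Md peaks, 71.4% of murine L1, 93.9% of Lx, 98.6% of L1M, 99.8% of L2 and 100% of CR1 peaks.

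**Figure D5:**
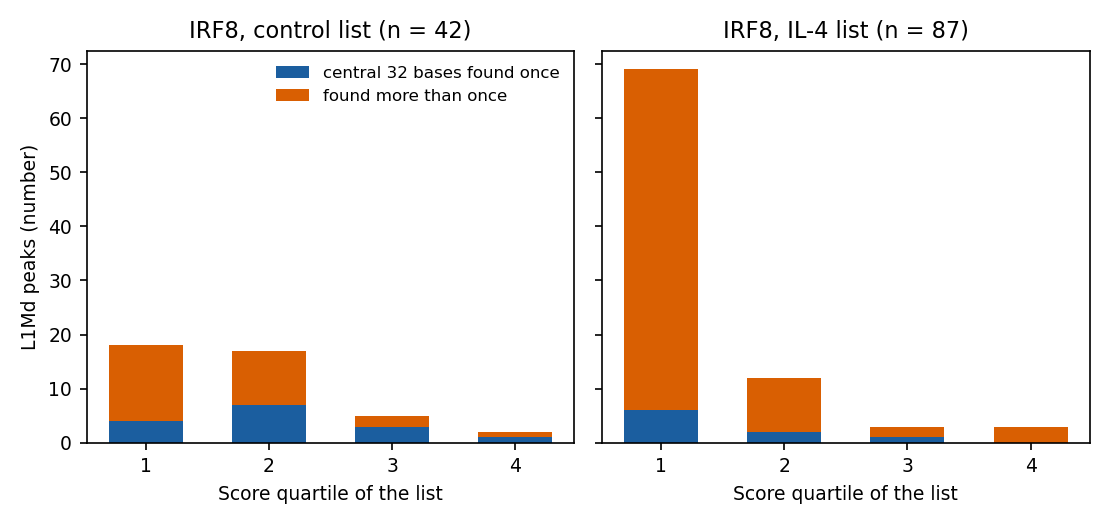
Number of IRF8 peaks on L1Md copies in control cells (42) and after IL-4 (87) by score quartile of the list (1 is the lowest), split by whether the central 32 bases occur once in the genome or more often. The lowest quartile held 69 peaks after IL-4 and 18 in control, and the centre occurred once for 6 and 4 of these.

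Some L1Md copies did carry strong IRF8 peaks in both conditions. An L1Md_F2 copy nearest to Mtpn, the myotrophin gene, scored 51.63 and 56.04, and its centre occurs 2 times in the genome. An L1Md_F2 copy with Zfp386 as its nearest gene, 1116360 bp away, scored 36.91 and 43.44, and its centre, which holds the site aaagGGAACTGAAactc, occurs 3 times. An L1Md_T copy nearest to Sptlc3, a gene of sphingolipid synthesis, scored 21.32 and 27.43, and its centre occurs 5 times. None of the 3 had a C/EBPα or JUNB peak.

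LINE peaks were less often intronic, and lay farther from start sites by the median, than peaks on no repeat. In control lists 44.8% of C/EBPα (42.2 to 47.5), 44.3% of IRF8 (42.3 to 46.4) and 39.6% of JUNB LINE peaks (33.1 to 46.5) were intronic, beside 53.9%, 54.3% and 50.02% on no repeat. Peaks on LTR elements were intronic less often still, at 38.2%, 37.1% and 32.03%. The median distance to the nearest transcription start site was 26829 bp beside 24092 bp for C/EBPα, 29644 bp beside 25066 bp for IRF8, and 30458 bp beside 28275 bp for JUNB. Within 10000 bp of a start site were 21.3% of C/EBPα LINE peaks (19.2 to 23.5) beside 27.7%, 19.3% of those of IRF8 (17.7 to 21.0) beside 27.5%, and 17.3% of those of JUNB (12.7 to 23.1) beside 23.0% (21.5 to 24.6), where the intervals overlapped.

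The X chromosome, which is known to be rich in L1 copies, had the highest share of its peaks on LINEs, with 286 of 2952 (9.69%, 8.67 to 10.8), and the next chromosome had 6.92% (6.16 to 7.77). Of the C/EBPα control LINE peaks 3.80% were on X (2.92 to 4.94), beside 1.89% on no repeat (1.69 to 2.10), and for IRF8 3.86% (3.13 to 4.75) beside 2.32% (2.13 to 2.51). For JUNB it was 4 of 202 in control (1.98%, 0.77 to 4.98), beside 1.02% on no repeat. After IL-4 it was 0 of 121 (interval 0 to 3.08), beside 0.555% on no repeat. The share on X was 9.62% for L1Md peaks (5.91 to 15.3) and 3.02% for L1M peaks (2.50 to 3.64).

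The LINE regions had 2902 nearest genes, of which 2218 had 1 region and 74 had 4 or more. Among the 5 with most were 1700019E08Rik with 8 of its 60 regions, Lyst, the lysosomal trafficking regulator, with 7 of 27, Pde4d, a cyclic AMP phosphodiesterase gene, with 7 of 24, and Rap2b, a small GTPase gene, with 7 of 41. At Pde4d the regions lay between 62456 and 302133 bp from the start site. IRF8 had 6 LINE peaks there in control and 7 after IL-4, C/EBPα 1 and 3, and JUNB 1 and 2.

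Peaks near genes of 5 chosen lists were counted next. The nearest gene is a label and not a shown target. As background for the counts here and below, 7658 of 134964 peaks over all genes were on LINEs, with 5.13% to 5.87% in single peak lists. Of 686 peaks nearest to 25 IL-4-activated genes, 50 were on LINEs (7.29%), at 24 regions of 16 genes. The C/EBPα lists held 12 such peaks in each condition, while IRF8 held 9 in control and 15 after IL-4, of which 7 were found after IL-4 only and 1 in control only. Over all IRF8 peaks, 30.4% of the IL-4 list and 21.4% of the control list had no partner. The 7 lay nearest to Arg1 (Lx8, score 3.97), Chi3l4 (L1_Mus3, 4.94), Egr2 (Lx5, 9.32), Flt1 (L1MC4, 11.99), Klf4 (L1MC, 5.37), Retnla (Lx7, 7.13) and Socs1 (L1ME3G, 9.43). The 1 in control only lay nearest to Clec10a (L1MA6, 4.06), another gene of this list. Arg1, Chi3l4 and Retnla are markers of alternative activation, and the Retnla copy lay 11301 bp from the start site. The Chi3l4 and Socs1 peaks held a STAT6-type motif, and the centre of the Flt1 peak occurs 30 times in the genome.

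The highest scores of this list were at peaks present in both conditions. An L1MB7 copy in intron 1 of 5 of Pdcd1lg2, which encodes the PD-1 ligand PD-L2, had C/EBPα scores of 29.77 and 59.20 and IRF8 scores of 32.82 and 27.77, and held a STAT6-type motif. The C/EBPα score was thus higher there after IL-4 and the IRF8 score was not. An L2 copy in intron 1 of 15 of Cd36, the scavenger receptor gene, had C/EBPα scores of 47.72 and 58.75, IRF8 scores of 38.43 and 27.00, and a JUNB score of 3.38 after IL-4 only. An L1MB3 copy nearest to Pparg, a nuclear receptor gene of lipid metabolism, scored 54.34 and 44.59 for IRF8 and 16.49 and 11.30 for C/EBPα. The IRF8 peak after IL-4 there was not counted as a LINE peak nearest to Pparg.

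Near 12 IL-4-repressed genes, 15 of 291 peaks were on LINEs (5.15%), at 6 genes. An L1MB2 copy 830 bp from the start of Nlrp3, the inflammasome sensor gene, in intron 2 of 9, scored 68.12 and 57.33 for C/EBPα and had no IRF8 or JUNB peak. An L1ME3A copy in intron 2 of 5 of Clec4d, a C-type lectin receptor gene, had peaks in all 6 lists, where C/EBPα scored 14.30 and 25.77, IRF8 scored 41.23 and 32.88, and JUNB scored 5.44 and 5.52. An L3 copy 6673 bp from the start of Cd14, the lipopolysaccharide co-receptor gene, had an IRF8 score of 32.89 after IL-4. Peaks of the same region that were not counted as LINE peaks nearest to Cd14 scored 35.74 for IRF8 in control, and 39.88 and 28.68 for C/EBPα.

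Near 25 macrophage identity genes, 48 of 1045 peaks were on LINEs (4.59%), at 12 genes. IRF8 held 16 of these in control and 11 after IL-4, of which 5 were found in control only and 1 after IL-4 only. Over all IRF8 peaks, 21.4% of the control list and 30.4% of the IL-4 list had no partner. Itgam, the gene of the integrin chain CD11b, had an L2 copy 13636 bp upstream with 120.48 and 112.96 for IRF8 and 12.69 and 20.69 for C/EBPα, and an L1M2 copy in intron 12 of 29 with 12.59 and 13.71 for IRF8 and 60.19 and 65.58 for C/EBPα. An L3 copy nearest to Maf, a leucine zipper factor gene, had C/EBPα scores of 49.72 and 43.79 and IRF8 scores of 15.57 and 12.27. Near 28 interferon and nucleic acid sensing genes, 14 of 215 peaks were on LINEs (6.51%), at 5 genes. An L2b copy in intron 2 of 2 of Tlr7, which encodes a sensor of single-stranded RNA, scored 83.34 and 117.77 for IRF8 and 12.13 and 9.60 for C/EBPα. An L1MB7 copy in intron 7 of 7 of the transcript NM_020622 had Mx1, an antiviral GTPase gene, as its nearest gene. It lay 9836 bp upstream of Mx1, and scored 46.09 and 32.19 for IRF8 and 16.71 and 24.60 for C/EBPα. An L1M5 copy nearest to Mavs, the adaptor of RNA sensing at mitochondria, scored 28.95 and 19.25 for IRF8 alone. Of 22 genes that silence LINEs or chromatin, 18 were the nearest gene of a peak, and of their 71 regions 0 were on LINEs. With 3 regions set as the limit for a count of 0, which is not a Wilson limit, that allows a share of up to 4.23%. Over all genes, 3921 of 60856 regions held a LINE peak. This share is of regions, while the percentages of the other lists are of peaks.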

How the data were processed

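ChIP-seq peak lists of C/EBPα, IRF8 and JUNB in control and IL-4-treated BMDMs were used, 1 sample per factor and condition. Per the submitters' processing notes, reads were handled with BWA 0.7.10, SAMtools 0.1.19, MACS2 2.0.10 and HOMER 4.2 on mm10. The authors deposited each peak with its start and end, a score taken here from its values as −log10 of a p or q value, the distance to the nearest transcription start site, and HOMER annotations made at the peak's centre. The control library and read depth are not given in the sources used here. LINE peaks were grouped by family and name, and lists were compared by overlap of at least 1 bp, paired scores, motif matches in 200 bp and exact copies of the central 32 bases in GRCm38. Python 3.11.15, pandas 2.3.3, NumPy 2.4.6, SciPy 1.17.1 and Matplotlib 3.10.9 were used, and the scripts were tested on simulated data.

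Members, gene lists and tests were chosen with earlier results of these data known. Peaks were named by rank: the 3 highest LINE scores of each list, of each set in 1 condition only, of the L1Md copies and of each gene list, the highest of each minor family, the 5 regions with peaks in all 6 lists whose lowest score was highest, and the 5 genes with most regions, of which 1 is not reported here. The 10 most frequent elements were named, as were the IRF8 LINE peaks in 1 condition only near IL-4-activated genes. Alternatives changed the score threshold, list length, overlap, peak width, window, score scale, distance, chromosomes and members. No p-value was computed, since no group had replicates.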

Additional observations from a re-analysis of the deposited data

Results flagged for a closer look

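The number of LINE peaks moved in opposite directions after IL-4 for IRF8 and JUNB. IRF8 had 2344 LINE peaks after IL-4 against 2201 in control (95% Poisson interval of the control count 2110 to 2295, for counting error only). JUNB had 121 against 202 (175 to 232), while C/EBPα had 1396 against 1394 (1322 to 1469). The whole lists moved the same way, from 37525 to 42076 peaks for IRF8 and from 3940 to 2325 for JUNB. With 1 sample per condition the difference between the factors was not tested, and depth and IL-4 cannot be told apart.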

How the results depend on the processing

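No paired analysis was possible because each factor and condition had 1 sample, and for the same reason no replicate could be left out. Of 226 values computed under other settings, 144 stayed within a set limit and 82 moved further. The limit was the counting interval, or a fixed fold for counts of L1Md peaks and of peaks near listed genes. A change of direction could be scored only for a median log2 ratio whose interval excluded 0, and 0 were seen. Whether the order of the 2 conditions changed was not scored for shares and counts. Autosomes only, peaks set to 200 bp, base pairs in place of peaks, and genes within 100000 bp moved none. Values follow the order C/EBPα control, C/EBPα IL-4, IRF8 control, IRF8 IL-4, JUNB control, JUNB IL-4 where all 6 are given, and otherwise name the lists.

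Only with scores of at least 10, the LINE share was 6.10% (C/EBPα control), 6.30% (IRF8 control), 4.39% (JUNB control) and 2.52% (JUNB IL-4), and the L1 share of IRF8 LINE peaks 82.0% and 82.2%. The C/EBP motif share was 47.8% and 46.4% in the C/EBPα lists, the ETS-IRF share 21.0% and 19.6% in the IRF8 lists and the AP-1 share 48.3% in JUNB control. Shared LINE peaks made up 78.8% and 80.4% for IRF8 and 15.5% and 72.7% for JUNB, whose median log2 ratio over pairs with both scores at least 10 was -0.081. C/EBPα LINE peaks overlapped IRF8 in 51.6% and 51.4%, IRF8 overlapped C/EBPα in 33.9% in control, and JUNB overlapped IRF8 in 63.6% after IL-4.

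With equal numbers of highest-scoring peaks, shared LINE peaks were 73.1% and 78.1% for IRF8 and 42.5% and 38.0% for JUNB, and overlap of IRF8 with C/EBPα after IL-4 was 38.9%. With scores divided by the list's median, the median log2 ratio was 0.11 for IRF8 and -0.30 for JUNB. In a 100 bp window the motif shares were 32.1%, 30.7%, 13.0%, 11.5%, 28.7% and 20.7%. Counting an overlap only from 50% of both peaks, 76.0% and 77.1% of C/EBPα LINE peaks and 70.4% and 66.5% of those of IRF8 were shared. Overlap was then 50.9% and 46.8% for C/EBPα with IRF8, 31.8% and 28.2% for IRF8 with C/EBPα, and 47.0% and 32.2% for JUNB with IRF8.

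Keeping LINE peaks whose centre is in lower case in the reference retained 25.3% of them, with 97.4% of L1Md, 65.7% of murine L1, 35.0% of Lx and 13.1% of L1M peaks. The LINE share was then 0.972%, 1.02%, 1.68%, 1.76%, 1.14% and 1.25%, and the L1 share 93.3%, 88.8%, 95.6%, 95.3%, 95.6% and 96.6%. Motif shares were 44.5% for C/EBPα control, 24.4% for JUNB control and 10.3% for JUNB IL-4. Shared LINE peaks were 74.8% for C/EBPα IL-4, 71.0% and 63.4% for IRF8 and 40.0% for JUNB control. Overlap was 68.9% and 63.2% for C/EBPα with IRF8, 27.8% and 24.7% for IRF8 with C/EBPα, and 84.4% and 51.7% for JUNB with IRF8.

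Keeping LINE peaks whose central 32 bases occur once, a setting chosen after seeing the data like the narrower L1Md counts, gave for IRF8 IL-4 an L1 share of 83.6%, 75.4% shared peaks and 38.6% overlap with C/EBPα. The cause of these moves was not tested, beyond the fewer peaks each setting keeps.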
